A study of Homo sapiens with 12 samples.

Results

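The comparison described here was MMACSF melanoma cells after 48 h in vemurafenib against MMACSF cells under DMSO, the vehicle. It was taken by its labels and comprised 4 of the 12 RNA-seq libraries of the study, with 2 replicates labelled DMSO and 2 labelled 48 h. MMACSF is an established BRAF-mutant human melanoma line, and the drug was given at 0.2 μM. The other libraries were 2 of MMACSF after 24 h in drug and 6 of the line COLO858 under the same 3 conditions, and no agent, allele or selection other than drug or DMSO is named for any group. The question was which transcripts of MMACSF differed between drug and vehicle, in a study that set this line beside COLO858. Replicates were separate 10-cm plates of 1 line, the p-values therefore measure the spread between plates, and the time that the DMSO plates spent in vehicle is not given in the labels.

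Vemurafenib binds mutant BRAF and blocks its kinase activity. In BRAF-mutant melanoma this kinase drives MEK and ERK without a growth factor, and ERK in turn keeps up the transcription of its own feedback inhibitors, of ETS and AP-1 factors and of cyclin D1, which opens the G1 to S phase transition. The transcription factor MITF directs the pigment genes of the melanocyte lineage, and melanoma cells can also express genes of the neural crest, the embryonic source of melanocytes.

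Values are FPKM as deposited by the authors, that is, fragment counts divided by transcript length and by the number of mapped fragments of the library. A change is the difference of mean log2(FPKM + 1) between groups with its standard error, and it understates the change of low genes. Genes with a mean of at least 1 FPKM under DMSO or at 48 h were tested with limma across all of them. Small RNA genes (MIR, SNORD, SNORA, SCARNA) were left out, while RNU12, a small nuclear RNA, was kept. A gene was counted as changed at a Benjamini-Hochberg adjusted p under 0.01. FPKM carry no read depth, so how precise a single library is at low levels is unknown. The summed FPKM, which is not a depth, was 726083 to 856083 over the 6 MMACSF libraries, and 11679 to 11972 genes reached 1 FPKM. A single small RNA gene, MIR4461, took 14.7% to 19.0% of that sum in the libraries of replicate 1 and 25.8% to 33.0% in those of replicate 2, and whether this moved other values was not tested. Replicates of MMACSF correlated at r = 0.983 under DMSO and 0.985 at 48 h, across genes, which are not independent replicates.

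The cells carried melanocyte lineage markers in every library. Under DMSO the melanosome genes PMEL and MLANA stood at 7947 and 7940 FPKM and at 962 and 1126 FPKM, and the lineage factor SOX10 at 283 and 208 FPKM. Markers of other cell types were mostly near 0, with means under 0.2 FPKM for PDGFRA, KRT14 and PTPRC and means of 0 for THY1, KRT5, CD3E and HBB, under DMSO and at 48 h. Of 23 such markers, LUM, DCN, KRT10 and CD68 reached the level for testing. The leukocyte marker CD68 was not near 0, at 79.2 and 84.8 FPKM under DMSO and at 76.7 and 83.4 FPKM at 48 h (adjusted p = 0.877). LUM, a matrix proteoglycan, stood at 52.2 and 73.3 FPKM under DMSO and at 17.9 and 26.4 FPKM at 48 h, which passed the threshold (adjusted p = 0.00493, up to 0.0228 without 1 library). The summed level of the 7 fibroblast markers was 54.7 and 76.5 FPKM under DMSO and 19.1 and 27.8 FPKM at 48 h. The part of other cells in the results below was not tested.

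At 48 h, 746 of 12140 genes tested were higher than under DMSO (6.14%) and 979 were lower (8.06%). The falls were deeper than the rises. A log2 change of 3 or more was reached by 79 falls and 4 rises, and one of 1 or more by 720 falls and 503 rises. With the replicate number as a block, 2711 genes were higher (22.3%) and 2604 lower (21.4%), and all 1725 genes called without the block were among them. The counts rested on both replicates of each group, since leaving out any 1 of the 4 libraries lowered them to 147 to 218 higher and 378 to 470 lower. The median change of all genes was 0.06, and it was -0.02 after rescaling the libraries by median ratios. Rescaling left 35.0% of the calls higher in place of 43.2%. The shares called over all genes, with and without the block, are the background for the counts of each list below.

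**Figure D1:**
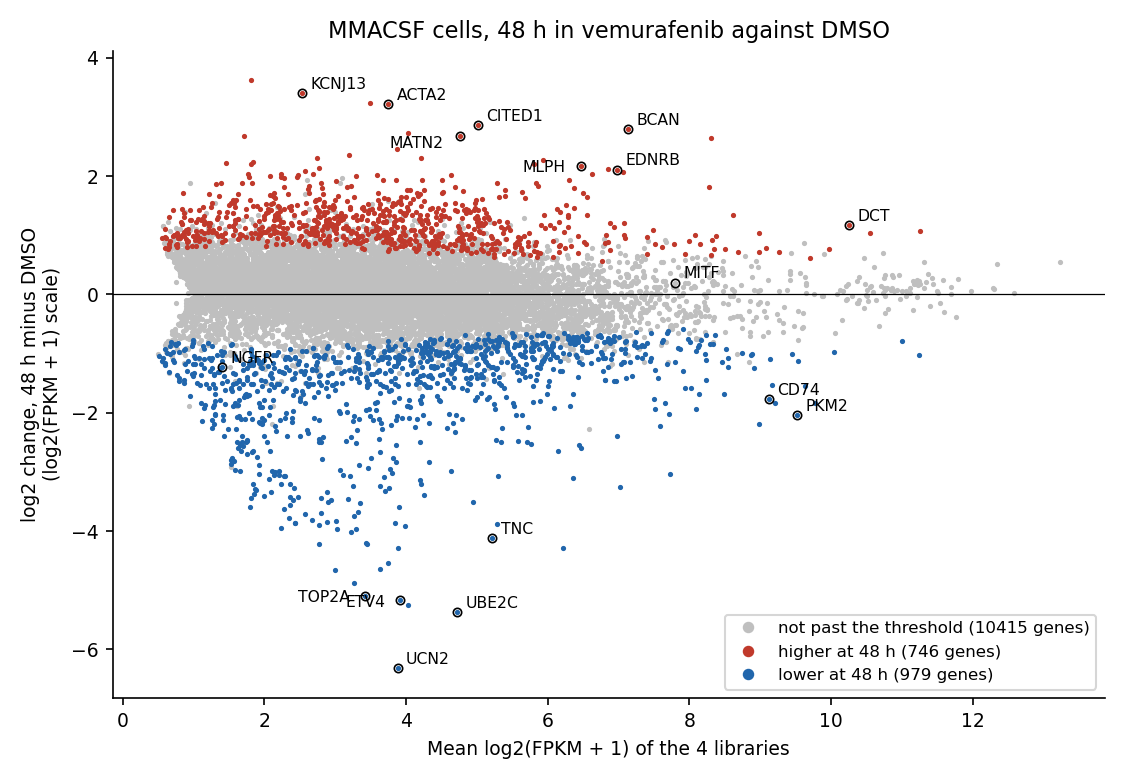
Each point is 1 of the 12140 genes tested in MMACSF cells, placed by its mean log2(FPKM + 1) over the 4 libraries (x axis) and its log2 change at 48 h against DMSO (y axis). The 746 rises (red) seldom pass 3 on the log2 scale, while the 979 falls (blue) reach below -6 with UCN2, and MITF lies in the grey band of genes that did not pass the threshold.

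The deepest fall was that of UCN2 (chromosome 3, 48599151 to 48601214, hg19), which encodes the secreted peptide urocortin 2. It stood at 136 and 126 FPKM under DMSO and at 0.643 and 0.652 FPKM at 48 h, a log2 change of -6.32 ± 0.23 (SE, adjusted p = 3.81e-05). Its annotated span meets that of PFKFB4 (chromosome 3, 48555117 to 48599448) on the same strand, so the reads of these neighbours could be split between them. UBE2C (chromosome 20, 44441215 to 44445596), the ubiquitin-conjugating enzyme of the anaphase-promoting complex, was at 168 and 169 FPKM under DMSO and at 3.59 and 2.64 FPKM at 48 h, a change of -5.37 ± 0.17. The neuropeptide precursor gene VGF was at 150 and 65.7 FPKM and fell to 2.05 and 1.32 FPKM, with the DMSO replicates further apart than those of any other of the 8 deepest falls. The others among the 8 were TOP2A, ETV4, MYBL2, RRM2 and TK1, described with their groups below.

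The highest rise by the fitted value was that of RNU12, the RNA of the minor spliceosome, which was listed at 0 in the DMSO and 24 h libraries and at 11.1 and 11.5 FPKM at 48 h, so that no fold is given. In COLO858 the same gene was listed at 6.19, 13 and 11.8 FPKM in replicate 1 under DMSO, at 24 h and at 48 h, and at 0 in replicate 2 each time, so its zeros also came and went within a group. KCNJ13 (chromosome 2, 233630512 to 233641275), a potassium channel gene, rose from 0.706 and 0.867 FPKM to 15.1 and 21.1 FPKM (3.40 ± 0.25, adjusted p = 0.00019). ACTA2 (chromosome 10, 90694831 to 90751096), smooth muscle actin, rose from 3.06 and 3.80 FPKM to 43.7 and 36.8 FPKM, a change of 3.22 ± 0.17. CITED1, a transcriptional co-regulator expressed in melanocytes, rose from 11.6 and 10.3 FPKM to 87.3 and 84.9 FPKM (2.86 ± 0.13). BCAN, the matrix proteoglycan brevican of neural tissue, rose from 60.9 and 45.3 FPKM to 412 and 331 FPKM (2.79 ± 0.21). In these genes no library of one group overlapped the other group, and the calls held without any 1 of the 4 libraries. SEC14L5 rose from 0.280 and 0.316 FPKM to 7.20 and 7.45 FPKM, and HIST1H2AC is described with its group.

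The transcripts that report ERK activity were low at 48 h. Of 26 genes of MAPK output and feedback tested, 19 were lower and 0 higher, with a median change of -1.31 against 0.06 over all genes, and with the block 21 were lower. Without 1 library 12 to 15 were lower. By role, the ETS factor ETV4 (chromosome 17, 41605212 to 41656988) fell from 101 and 79.4 FPKM to 1.75 and 1.28 FPKM (-5.17 ± 0.19, adjusted p = 3.81e-05). Of the feedback inhibitors, SPRY4, a Sprouty protein that acts on RAS signalling, fell from 35.1 and 36.4 FPKM to 4.26 and 4.64 FPKM (-2.76 ± 0.16). DUSP6, the phosphatase of ERK, fell from 40.4 and 40.9 FPKM to 10.8 and 11.1 FPKM (-1.80 ± 0.14). CCND1, cyclin D1, fell from 168 and 184 FPKM to 26.6 and 28.3 FPKM (-2.64 ± 0.13). The replicates of each of these genes lay close together and far from the other group.

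The AP-1 family did not move as one. Of 14 AP-1 genes tested, 3 were lower and 1 was higher, and with the block 4 were lower and 3 higher. The share called was 28.6% without the block, beside 8.06% lower and 6.14% higher over all genes. With the block the counts lay near the shares over all genes, 21.4% lower and 22.3% higher. FOSL1 and MAFF also belong to the MAPK list above. FOSL1, the FRA1 subunit, fell from 55.2 and 46.6 FPKM to 3.49 and 3.10 FPKM (-3.59 ± 0.17), and the small MAF protein gene MAFF fell from 158 and 138 FPKM to 9.93 and 8.40 FPKM (-3.88 ± 0.16). FOS fell from 9.06 and 8.17 FPKM to 1.19 and 0.916 FPKM (-2.23 ± 0.17). JUN, the partner subunit, stood at 11.4 and 9.03 FPKM under DMSO and at 27.8 and 23.7 FPKM at 48 h, a change of 1.26 ± 0.26 that missed the threshold without the block (adjusted p = 0.0115) and passed it with the block (adjusted p = 0.000355). MAF was the member called higher (1.01 ± 0.15, adjusted p = 0.00375), and this call was lost without each of the 4 libraries in turn, with an adjusted p of up to 0.0358.

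The cell cycle genes carried the deepest falls as a group. Of 65 genes of mitosis and the kinetochore tested, 63 were lower and 0 higher, with a median change of -2.97, and with the block all 65 were lower. The 2 that missed the threshold without it were CDC25B (-0.56, adjusted p = 0.0689) and SMC2 (-0.96, adjusted p = 0.0163). With 1 library left out, 60 or 61 were lower. Of 50 genes of DNA replication and S phase, 43 were lower and 0 higher, with a median of -1.64, and with the block 50 were lower, while 30 to 34 were lower without 1 library. Of 29 genes of homologous recombination and Fanconi repair, 14 were lower and 0 higher (21 and 0 with the block, 8 or 9 lower without 1 library).

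Levels of mitosis genes at 48 h ran from a mean of 0.0641 FPKM to 35.2 FPKM, the latter for PTTG1, the securin gene, named after its value was seen. TOP2A (chromosome 17, 38544777 to 38574148), the topoisomerase that untangles sister chromatids, fell from 54.0 and 70.4 FPKM to 0.654 and 1.01 FPKM (-5.10 ± 0.21, adjusted p = 3.81e-05). MYBL2, the B-MYB factor that acts on mitotic promoters, fell from 56.6 and 46.2 FPKM to 0.906 and 0.666 FPKM (-4.87 ± 0.20). AURKB, the kinase of the chromosomal passenger complex, fell from 71.0 and 58.3 FPKM to 2.39 and 2.31 FPKM (-4.29 ± 0.20). CCNB1, cyclin B1, fell from 49.3 and 57.0 FPKM to 4.34 and 6.14 FPKM (-3.13 ± 0.21). MKI67, whose product is the proliferation antigen Ki-67, fell from 10.0 and 11.0 FPKM to 0.0430 and 0.0852 FPKM, a change of -3.44 ± 0.17 on the log2(FPKM + 1) scale. The groups did not overlap in any of these genes.

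Members of the mitosis list share promoter features, which the choice of the list did not use. Promoter windows of 300 bases around the start site were taken from RefSeq (GRCh38.p14), and 55 of the 65 genes matched an entry. The CHR letters (TTTGAA or TTCGAA, either strand) were in 39 of the 55, or 70.9%, and in 16.6% of all 27305 promoters. The letters CCAAT, on either strand, were in 69.1% of them and in 35.7% of all promoters, and both motifs were in 50.9% against 6.58%. Of 44 promoters of the replication list, 22 held E2F letters (TTTCCCGC, TTTCGCGC, TTTGCCGC or TTTGGCGC), which is 50.0% against 3.33% of all promoters, while 6.82% held CHR letters. These are matches of letters and not measured binding.
The 4 stretches below show mitosis promoters that hold both motifs, with CHR and CCAAT letters in capitals, and were chosen after their values were seen. In MKI67 a CHR match and a reversed CCAAT match share a base. The 150 bases end 20 bases after the start of the transcript.
CDC20 (chr1:43358851-43359000, plus strand): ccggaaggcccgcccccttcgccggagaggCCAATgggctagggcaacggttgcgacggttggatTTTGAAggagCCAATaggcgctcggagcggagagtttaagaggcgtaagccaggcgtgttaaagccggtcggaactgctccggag
PLK1 (chr16:23678759-23678908, plus strand): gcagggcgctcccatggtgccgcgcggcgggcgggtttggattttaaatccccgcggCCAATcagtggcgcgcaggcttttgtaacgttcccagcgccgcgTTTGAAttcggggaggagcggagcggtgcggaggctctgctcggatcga
CCNB2 (chr15:59105016-59105165, plus strand): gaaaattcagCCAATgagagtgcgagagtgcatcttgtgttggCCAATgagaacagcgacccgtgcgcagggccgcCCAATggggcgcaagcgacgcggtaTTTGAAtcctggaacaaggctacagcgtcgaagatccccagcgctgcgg
MKI67 (chr10:128126404-128126553, minus strand): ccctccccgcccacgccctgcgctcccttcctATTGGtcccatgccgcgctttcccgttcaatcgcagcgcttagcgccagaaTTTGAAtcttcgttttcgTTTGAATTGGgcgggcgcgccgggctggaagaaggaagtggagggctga
Next to MKI67, given above, CDC20, the activator of the anaphase-promoting complex, fell from 45.6 and 46.3 FPKM to 1.76 and 1.30 FPKM. PLK1, the mitotic kinase, fell from 38.6 and 34.6 FPKM to 1.74 and 0.972 FPKM, and CCNB2, cyclin B2, from 37.1 and 45.6 FPKM to 2.80 and 3.99 FPKM.

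By their part in S phase, the replication genes gave these values. CDC6, which loads the replicative helicase on origins, fell from 26.9 and 32.2 FPKM to 1.13 and 1.17 FPKM (-3.83 ± 0.20, adjusted p = 6.38e-05). CDC45, a part of the active helicase, fell from 23.7 and 22.1 FPKM to 0.917 and 0.490 FPKM (-3.82 ± 0.19). The helicase subunit MCM2 fell less, from 19.1 and 18.6 FPKM to 6.34 and 6.10 FPKM (-1.46 ± 0.16, adjusted p = 0.000967, up to 0.0104 without 1 library). RRM2, the regulated subunit of ribonucleotide reductase, fell from 34.9 and 43.8 FPKM to 0.612 and 0.585 FPKM (-4.65 ± 0.19), and TK1, thymidine kinase, from 67.6 and 55.1 FPKM to 1.51 and 1.46 FPKM (-4.64 ± 0.19). CDC6, CDC45, RRM2 and TK1 thus lay near or under 1.5 FPKM at 48 h, while MCM2 stayed near 6 FPKM. The helicase subunits MCM3, MCM4, MCM5 and MCM7 had means of 19.7, 8.34, 12.5 and 46.6 FPKM at 48 h.
Replication promoters with E2F letters in capitals follow, for MCM2 and, chosen after their values were seen, the helicase subunit MCM6 and the S phase factor E2F1. In MCM2 and MCM6 the capitals hold 2 overlapping matches on opposite strands.
MCM2 (chr3:127598281-127598430, plus strand): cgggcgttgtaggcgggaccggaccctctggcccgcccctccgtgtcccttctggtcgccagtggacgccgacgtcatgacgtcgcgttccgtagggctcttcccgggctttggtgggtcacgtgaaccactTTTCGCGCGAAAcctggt
MCM6 (chr2:135876424-135876573, minus strand): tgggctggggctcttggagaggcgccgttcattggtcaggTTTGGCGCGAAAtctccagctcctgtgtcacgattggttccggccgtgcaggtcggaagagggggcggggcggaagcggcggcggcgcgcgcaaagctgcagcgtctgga
E2F1 (chr20:33686366-33686515, minus strand): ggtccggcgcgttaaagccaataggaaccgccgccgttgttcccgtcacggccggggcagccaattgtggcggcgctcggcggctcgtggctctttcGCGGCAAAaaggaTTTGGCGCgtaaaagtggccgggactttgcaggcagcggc
MCM6 was at 25.2 and 31.8 FPKM under DMSO and at 8.86 and 11.0 FPKM at 48 h (adjusted p = 0.00279, up to 0.0181 without 1 library), and E2F1 fell from 40.1 and 29.8 FPKM to 1.98 and 1.63 FPKM.

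Regulators of G1 moved both ways. Of 17 G1 cyclins, CDKs and inhibitors tested, 4 were lower and 2 higher (10 and 3 with the block). The share called was 35.3% without the block, beside 8.06% lower and 6.14% higher over all genes. With the block the 3 higher genes were not above the 22.3% over all genes, where 21.4% were lower. CCND1, given above, belongs to both this list and the MAPK list. CDKN1B, the CDK inhibitor p27, rose from 13.2 and 13.6 FPKM to 34.1 and 35.8 FPKM (1.32 ± 0.13, adjusted p = 0.000672), and CCNG2, the atypical cyclin G2, rose from 3.08 and 4.14 FPKM to 9.01 and 13.4 FPKM (1.39 ± 0.24, adjusted p = 0.00592). CCNE2, cyclin E2, fell from 4.68 and 6.74 FPKM to 0.243 and 0.521 FPKM. CDKN1A, the CDK inhibitor p21, was lower, at 48.3 and 44.5 FPKM under DMSO and at 22.0 and 23.3 FPKM at 48 h (-1.0 ± 0.13, adjusted p = 0.00233). CDKN2C, the inhibitor p18, was also lower (-1.33 ± 0.24, adjusted p = 0.00712). The calls of CCNG2, CDKN1A and CDKN2C were lost when 1 library was left out, with adjusted p-values of up to 0.0391, 0.0209 and 0.0476.

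The histone genes that make polyadenylated transcripts outside S phase went the other way. Of 10 tested, 5 were higher and 0 lower, with a median change of 1.44, and 8 were higher with the block and 3 without any 1 library. HIST2H2BE rose from 4.96 and 5.02 FPKM to 23.0 and 23.0 FPKM (2.01 ± 0.14, adjusted p = 0.00016), and HIST1H2BD from 3.25 and 4.64 FPKM to 19.0 and 18.1 FPKM (2.00 ± 0.18). HIST1H2AC rose from 2.00 and 3.5 FPKM to 35.3 and 32.3 FPKM (3.24 ± 0.40). Histone genes are near-identical copies, so the reads of single members could be split between them.

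**Figure D2:**
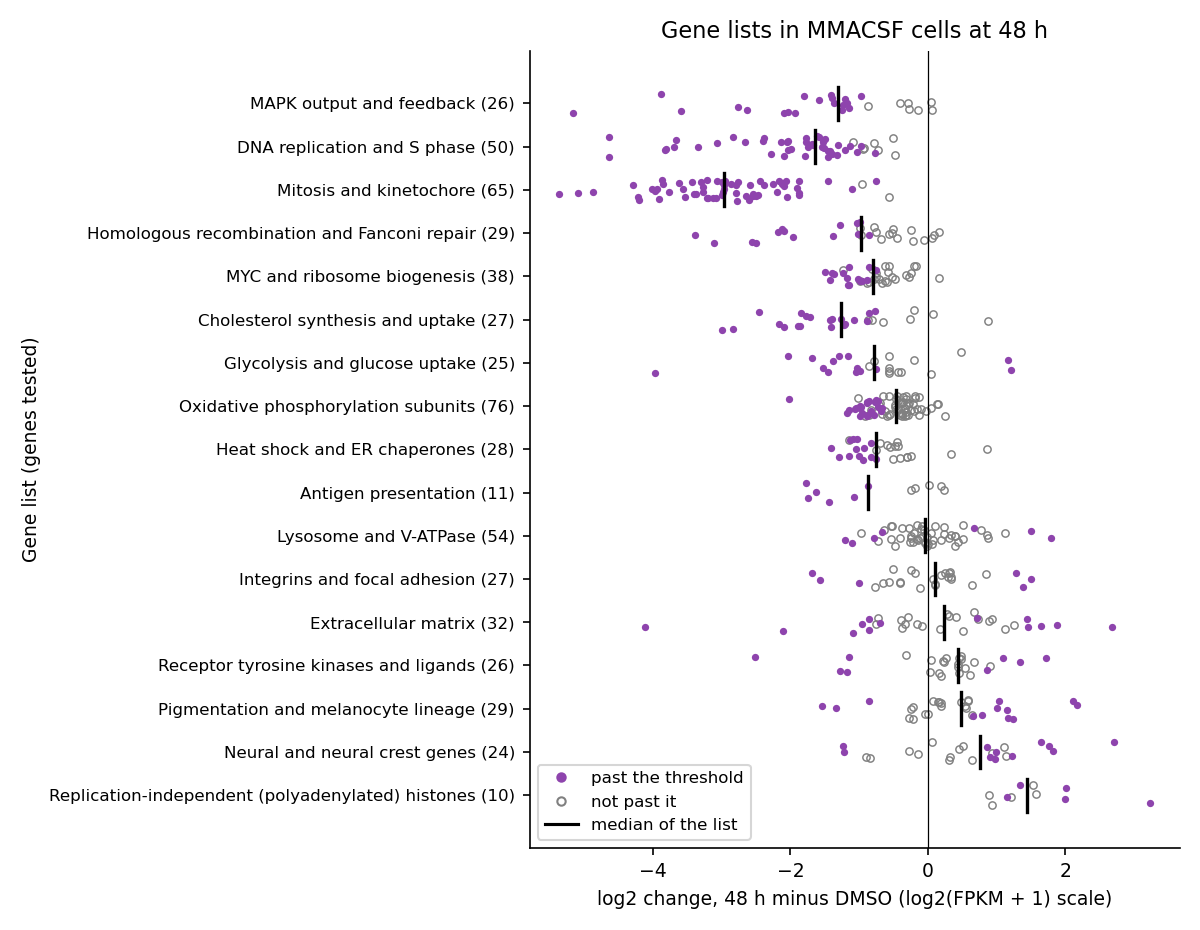
Each point is 1 tested member of a gene list, placed by its log2 change at 48 h against DMSO in MMACSF cells, with filled points for genes past the threshold without the block and a bar at the median of the list. The mitosis list lies furthest to the left, with a median of -2.97, and the polyadenylated histones furthest to the right, with a median of 1.44.

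Genes of lipid and sugar metabolism were mostly lower. Of 27 genes of cholesterol synthesis and uptake, 20 were lower and 0 higher (23 and 1 with the block), with a median of -1.27. DHCR7, the last reductase of cholesterol synthesis, fell from 72.7 and 65.4 FPKM to 7.72 and 7.88 FPKM (-2.99 ± 0.15, adjusted p = 5.15e-05). SQLE, squalene epoxidase, fell from 41.5 and 42.0 FPKM to 8.10 and 8.87 FPKM. Leaving out 1 library gave 10 to 12 lower genes.

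Of 25 genes of glycolysis and glucose uptake, 12 were lower and 2 higher (19 and 3 with the block). PKM2, pyruvate kinase under its older symbol, fell from 1584 and 1400 FPKM to 382 and 341 FPKM (-2.04 ± 0.13), and LDHA, lactate dehydrogenase A, from 590 and 700 FPKM to 190 and 211 FPKM (-1.68 ± 0.14). PFKFB4, which makes the activator of phosphofructokinase, fell from 39.5 and 35.9 FPKM to 1.34 and 1.6 FPKM (-3.97 ± 0.17). The 2 higher genes were TXNIP (1.21, adjusted p = 0.0016, up to 0.0152 without 1 library) and ARRDC4 (1.17, adjusted p = 0.0039, up to 0.0339), arrestin-domain proteins that restrain glucose uptake. Without 1 library 7 or 8 were lower and 0 or 1 higher. Of 76 subunits of oxidative phosphorylation, 23 were lower and 0 higher, with a median of -0.47, while 55 were lower with the block and 2 to 7 when 1 library was left out. The sharpest was ATP5G1, a subunit of ATP synthase, from 436 and 411 FPKM to 107 and 100.0 FPKM (-2.02 ± 0.14). PPARGC1A, the co-activator of mitochondrial genes, stood at 6.63 and 9.09 FPKM under DMSO and 5.03 and 6.33 FPKM at 48 h (-0.40 ± 0.24, adjusted p = 0.243).

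Of 38 MYC and ribosome biogenesis genes, 15 were lower and 0 higher (33 and 0 with the block), but only 1 to 4 were lower when 1 library was left out. MYC itself was at 74.7 and 63.8 FPKM under DMSO and at 31.0 and 26.9 FPKM at 48 h (-1.23 ± 0.18, adjusted p = 0.00296, up to 0.0228 without 1 library). DKC1, dyskerin, which modifies ribosomal RNA, fell from 34.5 and 34.9 FPKM to 12.9 and 12.9 FPKM (-1.36 ± 0.14). Of 28 heat shock and ER chaperone genes, 13 were lower and 0 higher (24 and 1 with the block, 4 to 7 lower without 1 library). HSP90AA1, the inducible HSP90, fell from 494 and 554 FPKM to 233 and 242 FPKM (-1.14 ± 0.12). Of 32 genes of the ATF4 amino acid response, 9 were lower and 2 higher (21 and 4 with the block, 1 to 3 and 1 or 2 without 1 library). MTHFD2, of mitochondrial folate metabolism, fell from 26.6 and 34.7 FPKM to 6.58 and 8.60 FPKM (-1.88 ± 0.20). The shares called were 39.5% of the MYC, 46.4% of the chaperone and 34.4% of the ATF4 genes tested. Over all genes 6.14% were higher and 8.06% lower, and with the block 22.3% and 21.4%.

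**Figure D3:**
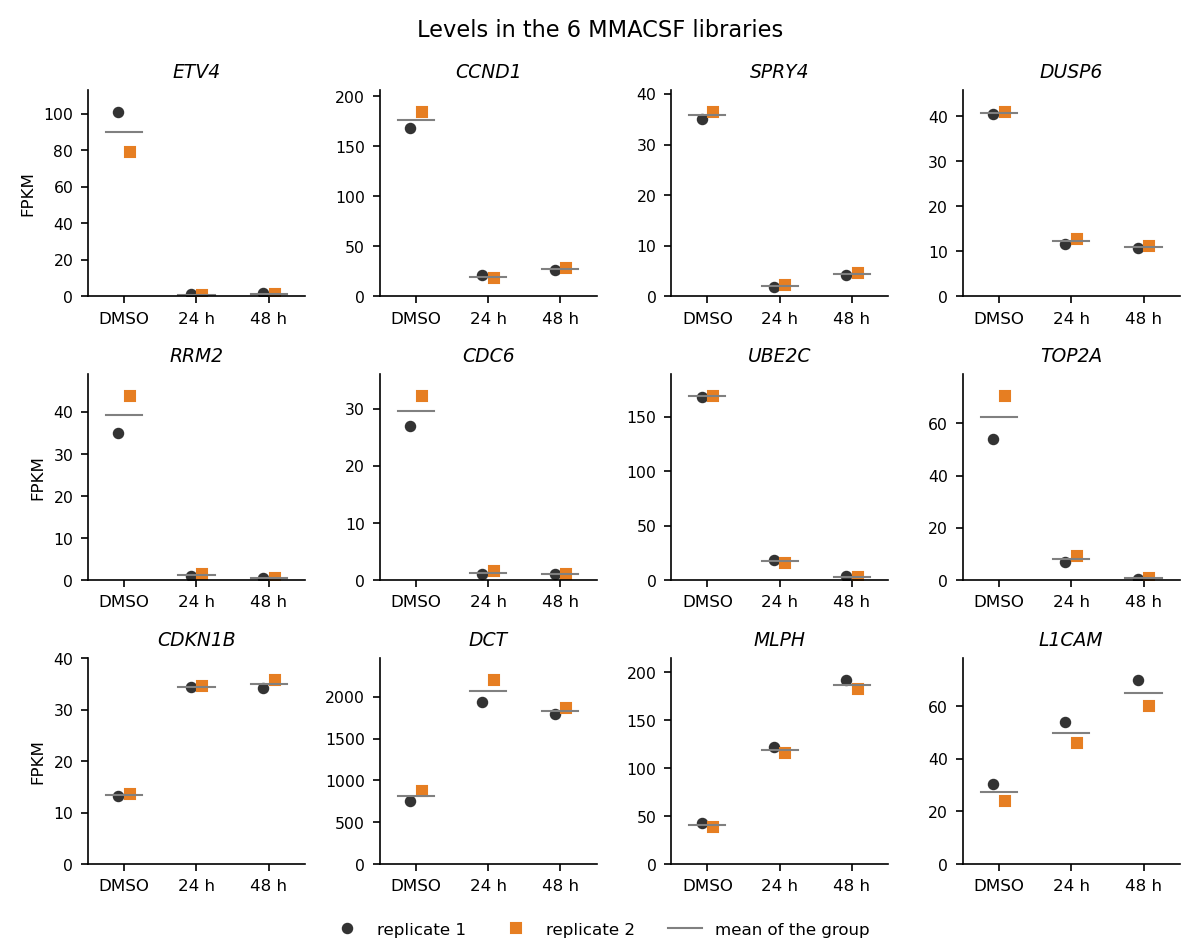
FPKM of 12 genes in each of the 6 MMACSF libraries (DMSO, then 24 and 48 h of vemurafenib at 0.2 μM), with circles for replicate 1, squares for replicate 2 and a line at the mean of each group, on linear axes that start at 0. The ERK targets ETV4, CCND1, SPRY4 and DUSP6 and the cell cycle genes are high under DMSO only, and CDKN1B, DCT, MLPH and L1CAM are higher in all 4 vemurafenib libraries than under DMSO.

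The pigment and lineage genes rose in part, with 41.4% of those tested called. Over all genes 6.14% were higher and 8.06% lower, and with the block 22.3% and 21.4%. Of 29 tested, 9 were higher and 3 lower (15 and 5 with the block), with a median of 0.49, and 3 to 6 were higher without 1 library. MITF itself stood at 174 and 244 FPKM under DMSO and at 209 and 268 FPKM at 48 h, and these ranges overlapped (0.20 ± 0.21, adjusted p = 0.523, and 0.0210 with the block). MLPH, melanophilin, which tethers melanosomes to the cytoskeleton, rose from 43.0 and 38.6 FPKM to 192 and 182 FPKM (2.17 ± 0.12, adjusted p = 7.52e-05). EDNRB, the endothelin receptor B of the lineage, rose from 53.5 and 67.2 FPKM to 233 and 293 FPKM (2.11 ± 0.17). DCT, the dopachrome tautomerase of melanin synthesis, rose from 758 and 869 FPKM to 1796 and 1861 FPKM (1.17 ± 0.13, adjusted p = 0.00127, up to 0.0121 without 1 library). Against these, RAB17, a melanosome transport GTPase, fell from 34.3 and 30.3 FPKM to 11.3 and 9.65 FPKM (-1.54 ± 0.16), and MC1R, the melanocortin receptor, was at 42.7 and 34.9 FPKM and then at 16.1 and 13.4 FPKM (-1.33 ± 0.19, adjusted p = 0.00298, up to 0.0225 without 1 library). SLC45A2, a melanosome transporter, was the other lower member (-0.85, adjusted p = 0.0034, up to 0.025 without 1 library).

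The M-box letters CATGTG, which MITF can bind, were in 11 of 23 pigment gene promoters on either strand, or 47.8%, against 11.2% of all promoters. The stretches of TYR and TYRP1 are shown with these letters in capitals because both encode enzymes of melanin synthesis. They were chosen after their values were seen. Whether pigment genes with the letters rose more often than those without them was not tested.
TYR (chr11:89177745-89177894, plus strand): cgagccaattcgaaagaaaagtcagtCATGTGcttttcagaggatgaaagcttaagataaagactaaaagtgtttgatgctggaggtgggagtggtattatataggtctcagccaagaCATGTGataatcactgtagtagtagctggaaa
TYRP1 (chr9:12693255-12693404, plus strand): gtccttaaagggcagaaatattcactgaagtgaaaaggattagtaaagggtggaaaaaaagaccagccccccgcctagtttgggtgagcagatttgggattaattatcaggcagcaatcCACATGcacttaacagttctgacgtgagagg
TYR stood at 178 and 201 FPKM under DMSO and at 365 and 402 FPKM at 48 h (1.01 ± 0.13, adjusted p = 0.00218, up to 0.0174 without 1 library). TYRP1 was a low transcript in these cells, at 1.48 and 2.44 FPKM and then at 4.82 and 6.21 FPKM (1.15 ± 0.22, adjusted p = 0.00882, lost without each library in turn, with values up to 0.0603).

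Neural and neural crest genes also rose in part, 9 of 24 tested, with 2 lower (14 and 5 with the block) and a median of 0.75. The share called was 45.8% without the block, beside 6.14% higher and 8.06% lower over all genes. With the block the 5 lower genes lay near the 21.4% over all genes, where 22.3% were higher. TFAP2A, a neural crest transcription factor, rose from 49.9 and 55.0 FPKM to 155 and 178 FPKM (1.65 ± 0.13, adjusted p = 0.000299), and SEMA6A, an axon guidance ligand, from 21.5 and 22.6 FPKM to 71.5 and 82.5 FPKM (1.76 ± 0.14). NGFR, the nerve growth factor receptor, went down, from 3.86 and 2.35 FPKM to 0.861 and 0.594 FPKM (-1.23 ± 0.22, adjusted p = 0.00663, and 0.000799 with the block). That call was lost without each of 3 libraries (adjusted p up to 0.0407) and with 0.1 FPKM added in place of 1, with no minimum level and with small RNA genes kept. NES, the intermediate filament nestin, was the other lower member (-1.22, adjusted p = 0.00146, up to 0.0136 without 1 library). Leaving out 1 library gave 4 or 5 higher and 0 to 2 lower.

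Matrix, adhesion and receptor genes went both ways. Of 32 matrix genes tested, 6 were higher and 7 lower (13 and 11 with the block), and without 1 library 4 to 6 were higher and 2 or 3 lower. TNC, tenascin C, fell from 156 and 153 FPKM to 7.76 and 8.08 FPKM (-4.12 ± 0.13, adjusted p = 3.67e-05), and LAMA1, the laminin α1 chain, from 37.1 and 35.2 FPKM to 7.58 and 7.60 FPKM (-2.11 ± 0.15). MATN2, matrilin 2, rose from 9.48 and 10.0 FPKM to 66.3 and 69.7 FPKM (2.68 ± 0.13), and MMP2, a gelatinase, from 31.1 and 26.9 FPKM to 116 and 102 FPKM (1.88 ± 0.14). Of 27 integrin and focal adhesion genes, 3 were higher and 3 lower (7 and 9 with the block, 1 or 2 in each direction without 1 library). Of 26 receptor tyrosine kinase and ligand genes, 4 were higher and 4 lower (12 and 4 with the block, 1 to 3 and 0 or 1 without 1 library). The shares called were 40.6% of the matrix, 22.2% of the integrin and 30.8% of the receptor genes tested. Over all genes 6.14% were higher and 8.06% lower, and with the block 22.3% and 21.4%. ACTN1, the actin crosslinker α-actinin 1, fell from 120 and 106 FPKM to 37.8 and 31.4 FPKM (-1.68 ± 0.16), and TNS3, tensin 3, rose from 45.3 and 43.5 FPKM to 130 and 127 FPKM (1.51 ± 0.11). TGFBR2, the type II receptor for TGF-β, rose from 23.7 and 30.1 FPKM to 127 and 139 FPKM (2.27 ± 0.17), and IGFBP3, a binding protein of insulin-like growth factors, from 59.5 and 56.5 FPKM to 157 and 141 FPKM (1.34 ± 0.12).

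Of 18 BCL2 family genes, 2 were higher and 1 lower (5 and 5 with the block, 1 higher and 0 or 1 lower without 1 library), and the 16.7% called lay near the share over all genes. Both higher genes encode BH3-only proteins that promote cell death. BMF rose from 10.4 and 9.61 FPKM to 27.8 and 32.7 FPKM (1.5 ± 0.15, adjusted p = 0.000756), and BCL2L11, which encodes BIM, from 3.42 and 4.09 FPKM to 10.4 and 13.5 FPKM (1.44 ± 0.23, adjusted p = 0.00421, up to 0.0311 without 1 library). PMAIP1, which encodes NOXA of the same class, was lower, at 1.96 and 1.93 FPKM and then at 0.141 and 0.276 FPKM (-1.29 ± 0.15, adjusted p = 0.00138, up to 0.0109 without 1 library). Among 54 lysosome genes 3 were higher and 4 lower, with the block 13 and 15, and without 1 library 1 or 2 and 0 to 2. Among 23 p53 targets 1 was higher and 4 lower, with the block 6 and 9, and without 1 library 0 and 1 or 2. Among 32 interferon-stimulated genes 1 was higher and 1 lower, with the block 5 and 4, and without 1 library 0 or 1 in each direction. Among 18 genes of the undifferentiated melanoma state 2 were higher and 4 lower, with the block 3 and 6, and without 1 library 0 or 1 and 3 or 4. Among 17 genes of TGF-β, BMP and ID signalling 1 was higher and 2 lower, with the block 6 and 3, and without 1 library 1 and 0 to 2. Among 17 genes of mitochondrial biogenesis 0 were higher and 1 lower, with the block 2 and 7, and without 1 library 0 and 0 or 1. The 13.0% of lysosome genes called lay near the share over all genes, 6.14% higher and 8.06% lower. The share called was 21.7% of p53 targets, 6.25% of interferon-stimulated genes and 33.3% of the undifferentiated state genes. It was 17.6% of the TGF-β, BMP and ID genes and 5.88% of the mitochondrial biogenesis genes.

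The 48 h libraries were next set against the 24 h libraries, a comparison that shares its 48 h libraries with the one against DMSO. Only 1 gene was higher at 48 h than at 24 h (0.00824%) and 16 were lower (0.132%). With the block 60 were higher (0.494%) and 183 lower (1.51%), and leaving out 1 of the 4 libraries left 2 or 3 lower. The gene higher at 48 h was RNU12, a small RNA that the exclusion did not cover, and no other gene passed the threshold as higher. In the mitosis list, 64 of the 65 genes had lower means at 48 h than at 24 h, with a median of -0.83 against -0.01 over all genes. Past the threshold as lower were 3 of them, UBE2C, TOP2A and KIF20A, and 25 with the block. UBE2C stood at 18.8 and 16 FPKM at 24 h (48 h minus 24 h -2.17, adjusted p = 0.00417) and TOP2A at 7.01 and 9.11 FPKM (-2.30, adjusted p = 0.00835). KIF20A, a mitotic kinesin named after its values were seen, stood at 4.29 and 4.92 FPKM at 24 h and at 0.396 and 0.365 FPKM at 48 h. The replication and MAPK lists had medians near 0, at -0.05 and 0.05, and SPRY4 was at 1.92 and 2.28 FPKM at 24 h, below its 48 h level (0.81, adjusted p = 0.143, and 0.00587 with the block).

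Of the 11 antigen presentation genes tested, 2 were lower at 48 h than at 24 h, and 5 with the block. Both of the 2, CD74 and HLA-DQA1, belong to MHC class II, whose products present antigen to helper T cells. CD74 (chromosome 5, 149781200 to 149792532), the invariant chain, stood at 1124 and 941 FPKM under DMSO, at 1351 and 1163 FPKM at 24 h and at 313 and 290 FPKM at 48 h. The difference was -1.77 ± 0.14 against DMSO (adjusted p = 0.000314) and -2.05 against 24 h (adjusted p = 0.00319). CIITA (chromosome 16, 10960079 to 11036878), the class II transactivator, was at 9.35 and 7.89 FPKM, at 8.85 and 8.93 FPKM and at 2.38 and 1.82 FPKM (-1.63 ± 0.18 against DMSO, adjusted p = 0.00107, up to 0.0105 without 1 library). Against 24 h its difference of -1.68 had an adjusted p of 0.0171, and of 0.00105 with the block. HLA-DQA1 was at 10.3 and 11.5 FPKM, at 19.6 and 16.5 FPKM and at 2.71 and 2.41 FPKM, with -1.74 ± 0.17 against DMSO and -2.42 against 24 h (adjusted p = 0.00319).

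Of the 11 antigen presentation genes tested, 6 were lower at 48 h than under DMSO and 0 higher, with and without the block, and 2 to 4 without 1 library. All 6 belong to class II, namely CD74, CIITA, HLA-DQA1, HLA-DQB1, HLA-DRA and HLA-DRB1. Against 24 h all 11 had lower means at 48 h, with a median of -1.07. There HLA-DQB1 (adjusted p = 0.0292), HLA-DRB1 (adjusted p = 0.0428) and HLA-DRA (adjusted p = 0.0836) did not pass the threshold. HLA-DRB5, a class II gene outside the list and named after its values were seen, did pass it (-1.44, adjusted p = 0.0068). It stood at 105 and 97.6 FPKM at 24 h and at 36.9 and 36.5 FPKM at 48 h (-1.23 against DMSO, adjusted p = 0.000796). B2M, the light chain of class I, was at 735 and 861 FPKM under DMSO and at 724 and 902 FPKM at 48 h (0.02 ± 0.15, adjusted p = 0.928). The other 14 members were below the level for testing, and 12 of them, such as HLA-C and TAP1, were listed at 0 in all 6 MMACSF libraries, so the values of this region may be incomplete and HLA genes share reads with close paralogs.

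Most of the other genes called lower at 48 h than at 24 h follow, named after their values were seen. SERPINA3, a serine protease inhibitor, was at 7.58 and 5.82 FPKM under DMSO, at 23.5 and 23.4 FPKM at 24 h and at 0.137 and 0.602 FPKM at 48 h (48 h minus 24 h -4.18, adjusted p = 0.00103). A2M, α2-macroglobulin, was at 2.28 and 2.18 FPKM, at 29.1 and 31.2 FPKM and back at 2.03 and 2.55 FPKM (-3.25, adjusted p = 0.00103). CFI, complement factor I, went from 9.98 and 11.5 FPKM at 24 h to 0.602 and 0.610 FPKM (-2.87, adjusted p = 0.00144), and SOCS3, an inhibitor of cytokine signalling through STAT3, from 16.7 and 13.5 FPKM to 2.37 and 1.6 FPKM (-2.44, adjusted p = 0.0073). ENPP2, which encodes autotaxin, went from 39.2 and 45.8 FPKM to 7.19 and 8.81 FPKM (-2.27, adjusted p = 0.00417), and ANGPTL7, an angiopoietin-like protein, from 9.51 and 10.5 FPKM to 2.02 and 1.76 FPKM (-1.93, adjusted p = 0.0068). These 6 genes were higher in both 24 h libraries than in any DMSO or 48 h library. ECM1, an extracellular matrix protein (-1.79, adjusted p = 0.00345), and GLDC, the glycine decarboxylase (-1.83, adjusted p = 0.00811), were instead highest under DMSO, at 118 and 110 FPKM and at 12.1 and 12.6 FPKM. TNC was also lower at 48 h than at 24 h, when it stood at 29.8 and 31.9 FPKM (-1.84, adjusted p = 0.00319).

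**Figure D4:**
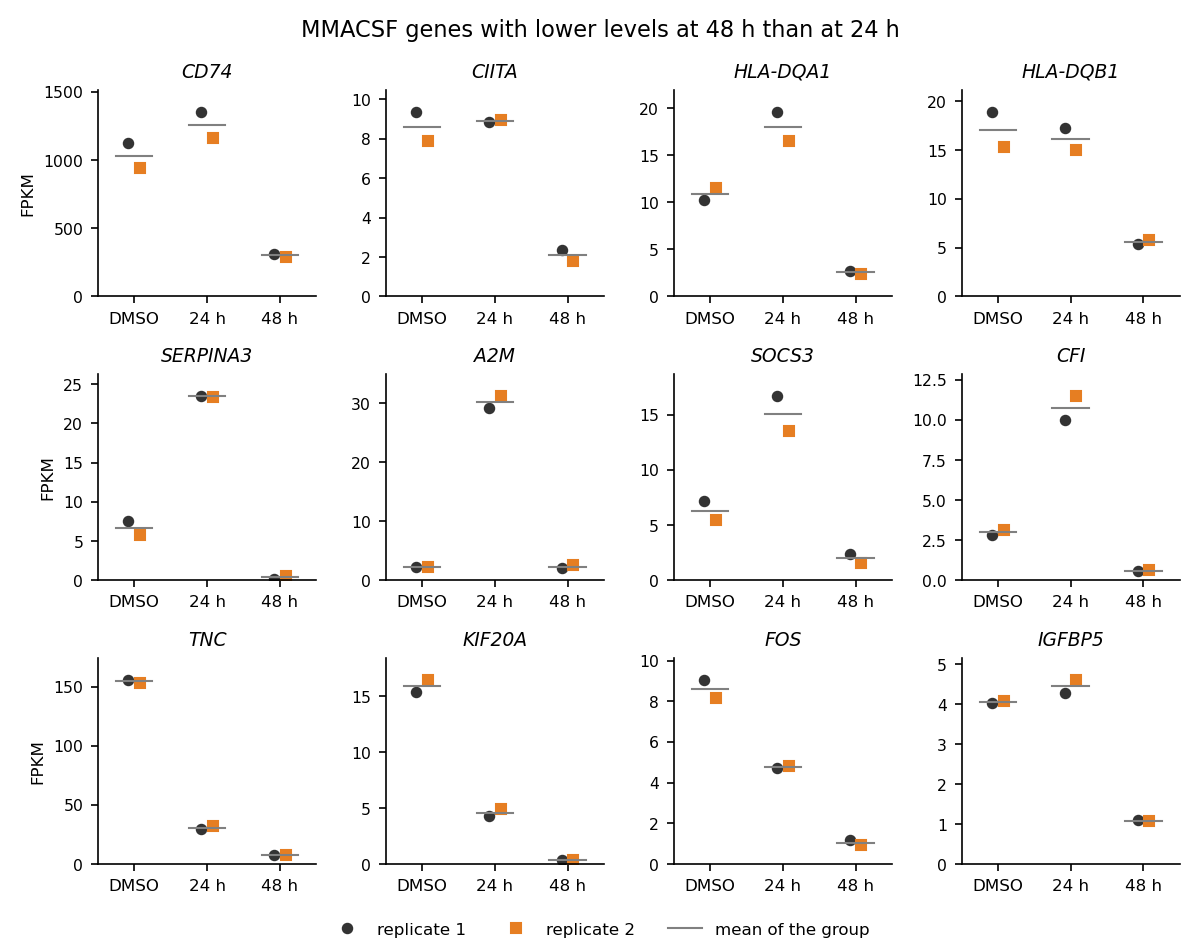
FPKM of 12 genes with lower means at 48 h than at 24 h in each of the 6 MMACSF libraries, with circles for replicate 1, squares for replicate 2 and a line at the mean of each group, on linear axes that start at 0. The MHC class II genes keep or exceed their DMSO level at 24 h and fall at 48 h, the genes SERPINA3, A2M, SOCS3 and CFI peak at 24 h, and TNC, KIF20A and FOS have lower means at each step.

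The 48 h change of MMACSF was then set against that of COLO858, each line against its own DMSO libraries, since the lines come in separate tables and levels were not compared between them. The MMACSF libraries are those of the comparison with DMSO above. Of 13031 genes, 519 had a more positive change in MMACSF (3.98%) and 630 a more negative one (4.83%), as an interaction in limma over 12 libraries. With the block these were 2031 and 2046, and without 1 library 267 to 342 and 390 to 484. Of the 65 mitosis genes, 52 had a more negative change in MMACSF and 0 a more positive one, with a median difference of -2.25 against 0.04 over all genes, and of the 50 replication genes 24 and 0. MKI67 changed by -0.56 in COLO858, from 15.9 and 19.8 FPKM to 10.9 and 12.5 FPKM, a difference between the lines of -2.87 ± 0.22 (adjusted p = 3.96e-05). MYBL2 changed by 0.20 in COLO858, and the difference was -5.07 ± 0.25 (adjusted p = 2.91e-06). CDKN1B changed by -0.31 in COLO858, and the difference was 1.63 ± 0.19 (adjusted p = 0.000389). Of the 26 genes of MAPK output, 3 had a more positive and 4 a more negative change in MMACSF. ETV4 changed by -5.55 in COLO858, a difference of 0.38 from MMACSF (adjusted p = 0.426).

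Among the genes that the study followed by name, NGFR, S100B, JUN, L1CAM, MAP2 and NCAM1 had a more negative change in MMACSF than in COLO858. NGFR went in COLO858 from 2.89 and 2.82 FPKM to 49.9 and 39.8 FPKM, and the difference between the lines was -4.79 ± 0.29 (adjusted p = 9.67e-06). S100B, a calcium-binding protein of neural crest cells, was at 857 and 782 FPKM in MMACSF under DMSO and at 706 and 640 FPKM at 48 h (-0.28 ± 0.12, adjusted p = 0.122, and 0.0046 with the block), a difference of -3.44 from COLO858 (adjusted p = 1.58e-06). L1CAM, an adhesion molecule of axons, rose in MMACSF from 30.5 and 24.1 FPKM to 70.1 and 60.0 FPKM (1.23 ± 0.17, adjusted p = 0.00262, up to 0.0181 without 1 library), and the difference between the lines was -1.52 (adjusted p = 0.00291). JUN differed by -3.28 (adjusted p = 0.000341). For FYN, a Src family kinase, the change was 0.64 ± 0.14 in MMACSF (adjusted p = 0.0141, and 0.000378 with the block), and the difference of -0.44 between the lines did not pass (adjusted p = 0.228).

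In MMACSF the change of NCAM1, a neural adhesion molecule, was 0.52 ± 0.14 (adjusted p = 0.0311, and 0.000848 with the block) and that of MAP2, a neuronal microtubule protein, 0.94 ± 0.24 (adjusted p = 0.0269, and 0.000425 with the block). CNTN6, a contactin, and THBS1, thrombospondin 1, stayed under 0.4 FPKM in all 6 MMACSF libraries and were not tested there. THBS1 went from 1.18 and 1.31 FPKM to 209 and 221 FPKM in COLO858. NOV, a matricellular protein, stood at 9.60 and 11.9 FPKM in MMACSF under DMSO and at 5.28 and 6.87 FPKM at 48 h (-0.73 ± 0.19, adjusted p = 0.0263, and 0.000725 with the block), a difference of -6.25 from COLO858 (adjusted p = 2.12e-06). LAMC1, the laminin γ1 chain, changed by 0.28 ± 0.14 (adjusted p = 0.166, and 0.00681 with the block). ITGB1, integrin β1, was at 134 and 185 FPKM and then at 105 and 133 FPKM (adjusted p = 0.191, and 0.00103 with the block), and PTK2, focal adhesion kinase, at 27.7 and 32.7 FPKM and then at 33.8 and 38.4 FPKM (adjusted p = 0.277, and 0.0117 with the block).

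**Figure D5:**
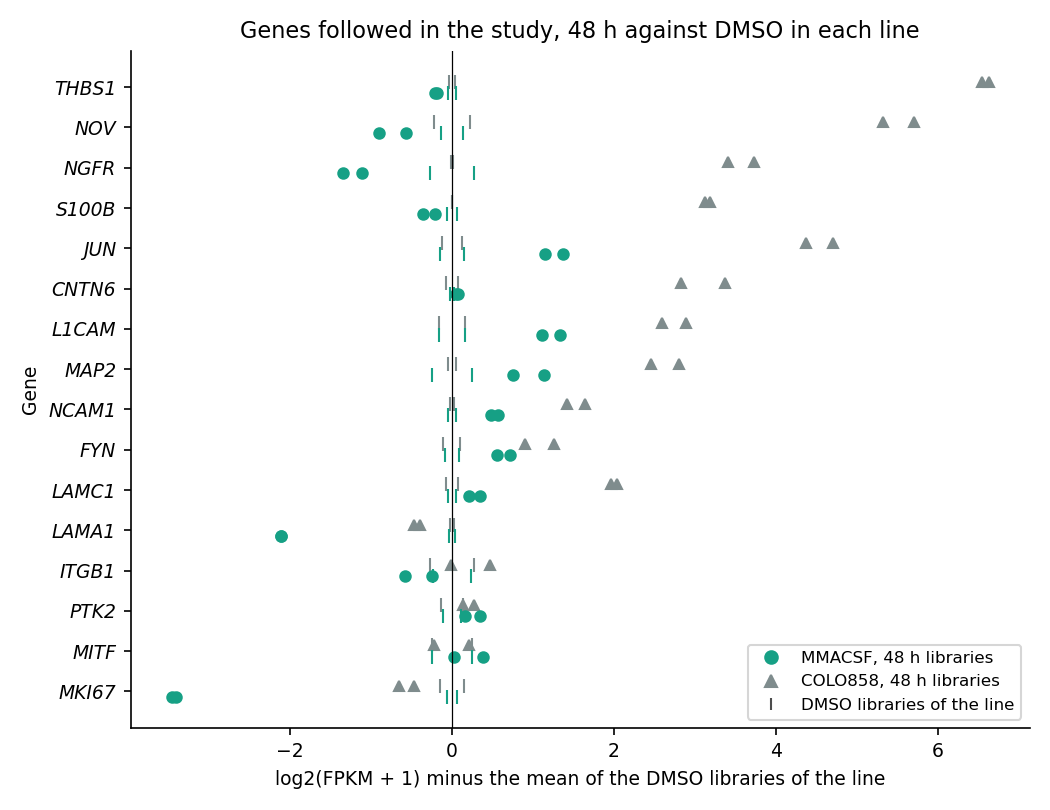
Each 48 h library (circles for MMACSF, triangles for COLO858) is placed by its log2(FPKM + 1) minus the mean of the DMSO libraries of its line, and the DMSO libraries themselves are ticks, for the 16 genes that the study named or stained. NGFR, NOV and S100B lie below 0 in both MMACSF libraries and above 3 in both COLO858 libraries, and MKI67 lies near -3.4 in MMACSF and near -0.6 in COLO858.

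A more positive change in MMACSF than in COLO858 was found for IGFBP3, SPRY4 and SEC14L5, among others. IGFBP3 rose in MMACSF and changed by -2.58 in COLO858, from 36.2 and 37.0 FPKM to 5.95 and 4.72 FPKM, a difference of 3.92 ± 0.18 (adjusted p = 2.15e-06). SPRY4 changed by -4.90 in COLO858, a difference of 2.14 (adjusted p = 3.96e-05). SEC14L5 changed by 0.13 in COLO858, a difference of 2.56 (adjusted p = 1.52e-05). It stayed at 0.154 to 0.350 FPKM in all COLO858 libraries, so its difference is close to the change of MMACSF by itself. The class II genes had little to lose in COLO858, where CD74 and CIITA were under 1 FPKM in all 6 libraries and HLA-DQA1 was listed at 0.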

How the data were processed

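RNA was sequenced from 12 libraries, 6 of each line. The authors aligned reads to hg19 with TopHat and deposited FPKM per gene from Cuffdiff, with 1 table per line. Tool versions, gene annotation and strand setting are not given in the sources used here, and whole reads could not be recovered from FPKM, so depth is unknown. Samples were grouped by their labels.

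1 FPKM was added and log2 values were tested with limma 3.58.1 in R 4.3.3 (linear model over the 6 MMACSF libraries, 3 groups, empirical Bayes with a mean-variance trend, Benjamini-Hochberg adjustment, threshold 0.01). Of 23273 genes listed, 1592 small RNA genes (MIR, SNORD, SNORA, SCARNA) were left out, and a mean of at least 1 FPKM was required under DMSO or at 48 h. Differences between lines were tested as an interaction over 12 libraries. The test was tried on simulated data. Alternatives were the replicate block, 0.1 FPKM added, no minimum, a minimum of 10 FPKM, small RNA genes kept, median-ratio rescaling, no trend, only the groups compared, an adjusted p under 0.05 and leaving out each library.

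Deviations from group means correlated between libraries of the same replicate number (r = 0.640 for DMSO and 24 h, 0.675 for DMSO and 48 h, 0.602 for 24 h and 48 h, over 12140 genes). With 2 numbers this does not establish pairs, so results are given with and without the block.

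Named genes were those the study followed by name, the 8 rises and 8 falls of greatest size among calls with at least 5 FPKM in the higher group and no overlap, and up to 4 leading and the key members of each list. Members and lists were chosen with earlier results of these data known. Gene positions are from GENCODE (GRCh37) and promoters from RefSeq (GRCh38.p14). Figures used Python 3.11.15 and matplotlib 3.10.9. Some named genes are not reported here.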

Additional observations from a re-analysis of the deposited data

Results flagged for a closer look

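Genes are listed here because their 48 h change differed between the lines by an adjusted p under 0.01 in the limma interaction. Each value is the log2 change of MMACSF minus that of COLO858, and what sets the difference was not tested. Among the genes named by rule, the most negative differences were those of THBS1 (-6.79), NOV (-6.25), MYBL2 (-5.07), NGFR (-4.79), TOP2A (-4.67), UBE2C (-4.55), TK1 (-4.13) and RRM2 (-4.02). Below them came MATN2 (-3.82), S100B (-3.44), JUN (-3.28), CDC6 (-3.16), CDC45 (-3.14), AURKB (-3.13), CNTN6 (-3.03) and LUM (-2.91). The next were MKI67 (-2.87), CCNE2 (-2.63), MAFF (-2.36), CCNB1 (-1.99), CDKN2C (-1.98), RAB17 (-1.94), CD74 (-1.88) and DCT (-1.84). A further set held EDNRB (-1.81), CDKN1A (-1.76), TNC (-1.76), HLA-DQA1 (-1.74), LAMC1 (-1.73), HIST2H2BE (-1.72), LAMA1 (-1.68) and MAP2 (-1.68). Smaller negative differences were found for CIITA (-1.67), TGFBR2 (-1.61), FOSL1 (-1.56), MC1R (-1.52), L1CAM (-1.52), TFAP2A (-1.46), HLA-DQB1 (-1.44) and HSP90AA1 (-1.23). Closer to 0 lay PKM2 (-1.22), ATP5G1 (-1.07), NCAM1 (-1.01), DUSP6 (-0.87) and CCND1 (-0.87). More positive in MMACSF were IGFBP3 (3.92), SEC14L5 (2.56), SPRY4 (2.14), CDKN1B (1.63), BCAN (1.45) and SEMA6A (1.29). Genes chosen after their values were seen gave negative differences for KIF20A (-3.83), MT2A (-3.81), CDC20 (-3.66), CFI (-3.20), E2F1 (-2.98), GLDC (-2.97), PLK1 (-2.79), CCNB2 (-2.51), PMEL (-2.42) and ECM1 (-2.25). Others of this kind were NES (-2.24), A2M (-2.15), SOCS3 (-2.08), SLC45A2 (-1.22) and HLA-DRA (-1.08). Positive differences in this set were those of SNHG7 (2.86), CD68 (1.33), GAS5 (1.33) and TYR (1.23). CD74, CIITA, the HLA genes, SEC14L5 and GLDC were at or under 1 FPKM in COLO858. For these genes the value is close to the change of MMACSF by itself. RAB17 was also under 1 FPKM in COLO858, and TYR was at most 1.21 FPKM there. THBS1 and CNTN6 were under 1 FPKM in MMACSF.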

How the results depend on the processing

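Counts at 48 h against DMSO moved with the replicate block (2711 higher, 2604 lower) and with an adjusted p under 0.05 (1731 and 1771). Higher counts were also 483 with a minimum of 10 FPKM, 464 with no minimum and 457 with small RNA genes kept. Under these settings the lower counts were 712, 738 and 709, in place of 979. Leaving out 1 library gave 147 to 218 higher and 378 to 470 lower, with the lone replicate assumed to vary like the other groups. Against 24 h, the 1 higher gene became 2 with no minimum, 60 with the block, 14 with small RNA genes and 3 at an adjusted p under 0.05, and the count was 1 without any 1 library. The 16 lower genes became 9 with the 10 FPKM minimum, 4 with no minimum, 8 with only the groups compared, 183 with the block, 10 with small RNA genes, 50 at an adjusted p under 0.05 and 2 to 3 without 1 library. Between the lines, 2031 and 2046 genes had a more positive and a more negative change in MMACSF with the block, 1090 and 1113 at an adjusted p under 0.05, 287 more positive ones with the 10 FPKM minimum, and 267 to 342 and 390 to 484 without 1 library.

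Of 113 named genes, the block brought 12 past the threshold and lost 0, and no call changed direction. Values near 0 changed sign for A2M (-0.04 rescaled, -0.09 to 0.14 without 1 library), B2M (-0.07 rescaled, -0.14 to 0.18 without 1 library), CD68 (-0.09 to 0.03 without 1 library) and MITF (-0.04 to 0.44 without 1 library). Leaving out 1 library lost 18 to 26 calls. The cause was not tested. Depth is unknown, so it sets no stated limit, and 2 plates a group limit the precision.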

Other observations

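Some genes outside the lists are given as values and were chosen after their values were seen. SNHG7, a host gene of small nucleolar RNAs, stood at 74.2 and 55.6 FPKM under DMSO, at 153 and 129 FPKM at 24 h and at 302 and 247 FPKM at 48 h (limma log2 change at 48 h 2.07). GAS5, another such host gene, was at 762 and 774 FPKM under DMSO and at 1299 and 1330 FPKM at 48 h (0.77), a call lost when 1 library was left out. SNHG15, of the same kind, changed by -1.59, so these host genes did not move in one direction. The metallothionein gene MT2A, which binds zinc and copper, fell from 333 and 319 FPKM to 14.1 and 17.6 FPKM (-4.28), while its paralog MT1X changed by -1.33 (adjusted p = 0.0349), and reads of these close copies could be split between them.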
